A study of Mus musculus with 32 samples.

Results

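Transcripts of 10 genes of the growth hormone axis were followed through mouse liver RNA sequencing. The genes were Ghr, Stat5a, Stat5b, Socs2, Socs3, Cish, Bcl6, Cux2, Igfals and Hsd3b5. They were taken by name from a table of 35275 genes. All 10 were found and all 10 passed the filter on low counts, after which 14438 genes were tested. The samples were whole livers of 32 male C57BL/6 mice aged 16 weeks, with 4 animals in each of 8 groups. The groups crossed genotype, diet and hours without food. Genotype was wild type (WT) or Fatp2-/- (KO). From the age of 12 weeks the mice ate either a ketogenic diet (KD) or the matched control diet (CD). Fasting before death lasted 4 or 24 h, so no group was fed up to death, and every fasting contrast sets a long fast against a short one. How the Fatp2 allele was made is not given in the sources used here. Slc27a2, the gene for Fatp2, lay between 121 and 318 normalised CPM (counts scaled to library size) in the 16 KO libraries and between 905 and 2229 CPM in the 16 WT libraries. The genotype labels were therefore borne out in every library, with some Slc27a2 reads left in KO liver.

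Growth hormone reaches the liver in pulses in male rodents and more evenly in females. Its receptor, Ghr, works through the kinase Jak2 to phosphorylate the transcription factors Stat5a and Stat5b, of which Stat5b is the main form in liver. Active STAT5 switches on Cish, Socs2 and Socs3, whose products damp the receptor's signal. It also drives the circulating growth factor system, to which Igfals belongs. In male liver STAT5 supports male-biased genes such as Hsd3b5 and opposes female-biased ones. Bcl6 is a repressor that binds many of the same DNA sites as STAT5 and is itself lowered by growth hormone. Cux2 is a female-biased liver factor that represses male-biased genes and activates female-biased ones. Long fasting is known to make the liver resistant to growth hormone. All of this is background; the libraries measured transcript levels only, not hormone, phosphorylation or binding.

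Total counts were between 13406678 and 24700310 per library. Of the libraries, 4 carried skeletal muscle transcripts: WT CD 24 h replicate 1, KO CD 24 h replicates 1 and 2, and KO KD 4 h replicate 4. Acta1, skeletal muscle actin, was at 78.4 to 178 CPM in those 4 and at most at 0.504 CPM in the other 28. The summed level of 6 hepatocyte markers differed by diet after 4 h. It was 69539 to 85305 CPM in WT CD and 30912 to 53004 CPM in WT KD, and 68647 to 77540 CPM in KO CD and 31797 to 55235 CPM in KO KD. After 24 h it was between 35600 and 76391 CPM over all libraries. Lymphocyte markers summed to at most 9.46 CPM, and Kupffer cell and macrophage markers to between 141 and 927 CPM. Immune cells also express Bcl6 and Socs3, and the part of those cells in their values was not tested. In whole tissue, fewer cells of a type and less RNA per cell cannot be told apart. WT CD 24 h replicate 1 had a Kupffer cell and macrophage sum of 927 CPM, against 258, 285 and 533 CPM in the rest of its group, and a stellate cell sum of 553 CPM against 266 to 321 CPM. The part of muscle and of these cell types in its values was not tested.

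STAT5 binds the letters TTCNNNGAA, and Bcl6 recognises an overlapping set of letters. The 250 bases before each annotated start were searched for this pattern, which reads the same on both strands in its fixed letters. RefSeq promoters on build GRCm38.p6 were found for 9 of the 10 genes, with 16 starts among them, and the gene not matched was Socs2. The pattern occurred before 5 of the 16 starts, in 3 genes: Socs3, Bcl6 and Igfals. It occurred in 7.02% of the 32851 mouse promoters of this length. A narrower pattern, TTCCTNGAA or its reverse complement TTCNAGGAA, is contained in the first one. It was present before 2 of the 16 starts and in 1.31% of all promoters. The matching stretches are shown because Socs3, Bcl6 and Igfals behaved differently from each other in the livers, with the matches in capitals and 20 bases on each side where the window allows.
Socs3, chr11:117969492-117969540, minus strand: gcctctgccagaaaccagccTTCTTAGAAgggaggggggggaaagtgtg
Bcl6 first start, chr16:23988942-23988990, minus strand: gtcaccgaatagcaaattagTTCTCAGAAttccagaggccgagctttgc
Bcl6 second start, chr16:23981343-23981471, minus strand: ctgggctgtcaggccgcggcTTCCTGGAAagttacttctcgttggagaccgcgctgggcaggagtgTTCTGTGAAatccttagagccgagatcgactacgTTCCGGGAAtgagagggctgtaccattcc
Igfals first start, chr17:24877594-24877636, plus strand: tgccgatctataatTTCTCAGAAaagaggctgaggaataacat
Igfals second start, chr17:24878153-24878201, plus strand: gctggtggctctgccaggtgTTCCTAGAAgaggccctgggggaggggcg

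The first base of the match lay 154 bases before the start in Socs3 and 118 bases before the upstream start of Bcl6. The downstream start of Bcl6 had 3 matches, at 168, 122 and 88 bases. In Igfals the matches lay 236 bases before one start and 58 bases before another. The remaining Igfals start, with its 250 bases at 24878497 to 24878746, had no match. In the deposited table Igfals starts at 24878770, downstream of both matched windows. None of the 5 windows overlapped an exon in the GENCODE M21 annotation. The Socs3 window, the downstream Bcl6 window and both Igfals windows lay within introns of those genes there, and the upstream Bcl6 window lay outside any gene. A match is a run of letters and not a measured binding site.

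Among 40 tests of 24 h against 4 h (10 genes in 4 combinations of genotype and diet), 13 passed at an adjusted p under 0.05 in edgeR, where 14.4% of the same tests over all genes passed. Among 40 tests of KD against CD 4 passed, against 9.33% over all genes, so the diet count was near the background. Among 40 tests of KO against WT 0 passed, against 2.67% over all genes. In WT on CD, 7 of the 10 genes changed over the long fast, 5 of them downward, where 18.5% of all tested genes changed. That count depended on the method and on some libraries. With limma voom sample weights Bcl6 (adjusted p 0.111), Socs2 (0.0834) and Stat5a (0.123) did not pass. Without the libraries with muscle transcripts Bcl6 (0.0907) and Stat5a (0.144) did not pass. Of these libraries, WT CD 24 h replicate 1 was the highest or lowest of its group for 8 of the 10 genes. In WT on KD 2 of 10 changed against 10.9% of all genes, in KO on CD 2 of 10 against 18.7%, and in KO on KD 2 of 10 against 9.38%. Averaged over the 4 combinations, 7 of 10 changed, 5 downward, against 35.1% of all genes, and the median log2 change was -0.34 for the 10 genes and -0.01 for all tested genes. The contrasts that share a group share its animals, so they do not count as separate evidence.

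**Figure D1:**
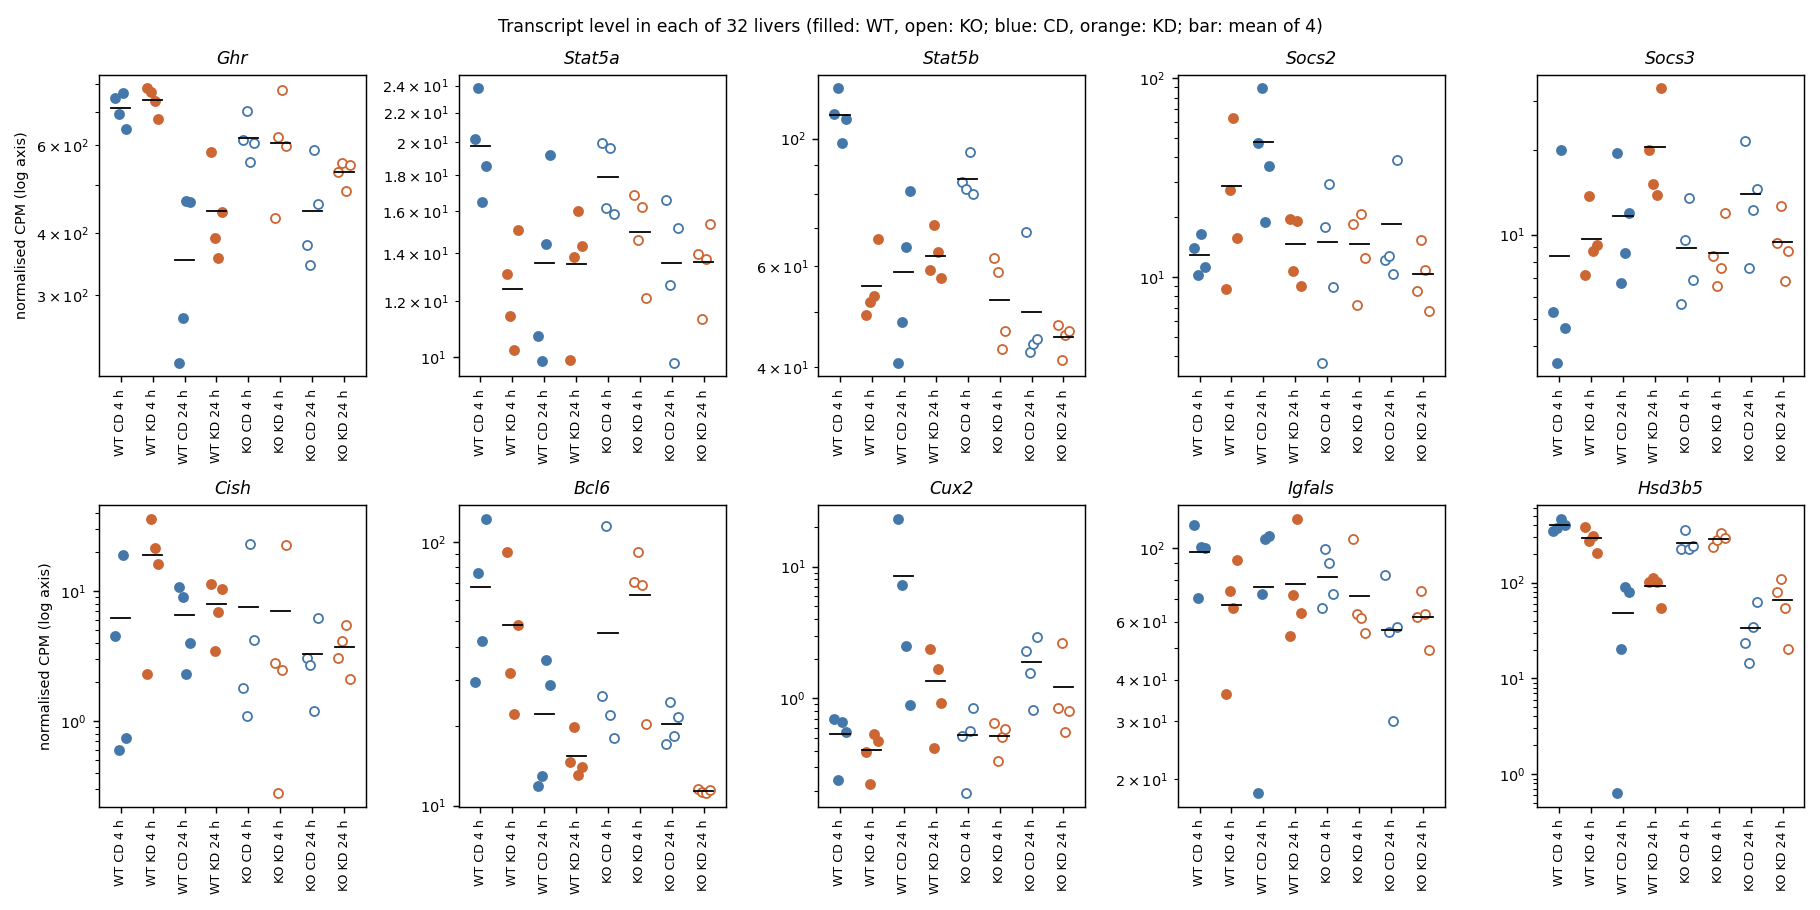
Normalised CPM (log axis) of the 10 genes in each of the 32 livers, by group, where each point is 1 animal and the bar is the mean of 4; filled points are WT, open points KO, blue CD and orange KD. Hsd3b5 is lower in all 16 livers after 24 h than in any of the 16 after 4 h, with a highest 24 h value of 110 CPM and a lowest 4 h value of 204 CPM, while Cish spreads from 0.28 to 36.3 CPM after 4 h.

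Ghr, the receptor, was the most abundant of the transcripts in CPM. In WT on CD it stood at 748, 694, 764 and 648 CPM after 4 h and at 219, 270, 463 and 461 CPM after 24 h. The groups did not overlap, and the means were 714 ± 52.7 and 353 ± 127 CPM (SD, n = 4). The log2 change was -1.02 ± 0.21 (SE), with an edgeR adjusted p of 0.000734. Without WT CD 24 h replicate 1, the lowest library, it was -0.83. In WT on KD Ghr fell from 742 ± 46.2 to 442 ± 99.8 CPM, a log2 change of -0.75 ± 0.21 with an adjusted p of 0.017. Again the highest 24 h liver, at 583 CPM, lay below the lowest 4 h liver, at 678 CPM. This call was lost without WT KD 24 h replicate 2 (adjusted p 0.0591) or replicate 3 (adjusted p 0.0673).

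In KO livers the fall of Ghr did not pass with all libraries. On CD its means were 621 ± 62.1 CPM at 4 h and 442 ± 109 CPM at 24 h, a log2 difference of -0.49 with an adjusted p of 0.0896. It passed with limma voom weights (-0.54, adjusted p 0.0178), without WT CD 24 h replicate 1 (-0.49, adjusted p 0.0481) and without KO CD 24 h replicate 3 (-0.65, adjusted p 0.0495). On KD they were 607 ± 143 and 530 ± 31.1 CPM. KO KD 4 h spread widest of the 4 h groups, from 428 to 777 CPM, while KO KD 24 h was the tightest of the 24 h groups, from 486 to 554 CPM. The difference between KO and WT in the fasting change did not pass on CD or on KD, where 0.61% and 0.256% of all genes passed and 0 of the 10 genes did on either diet. Ghr after 24 h had group means in the order WT CD, KO CD, WT KD and KO KD, and neighbours in that order overlapped. Per length, Ghr ranged from 55.3 to 209 FPKM (fragments scaled to gene length and library total) over the 32 livers.

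Stat5b was the more abundant of the STAT5 transcripts, with a median of 11.6 FPKM over 32 livers against 3.77 FPKM for Stat5a. It had its highest level in WT CD 4 h, with 110, 122, 98.3 and 108 CPM. In WT KD 4 h it stood at 49.3, 51.9, 53.3 and 66.9 CPM. These groups were far apart, and the log2 change with KD was -0.99 ± 0.17, with an adjusted p of 9.6e-05. In KO after 4 h Stat5b went from 83.9, 81.8, 94.6 and 79.97 CPM on CD to 61.9, 58.7, 43.1 and 46.3 CPM on KD, a log2 change of -0.70 ± 0.17 with an adjusted p of 0.0107. Every KD liver was again below every CD liver. That call was lost without KO KD 4 h replicate 3 (-0.61, adjusted p 0.0579) or replicate 4, a library with muscle transcripts (-0.62, adjusted p 0.0576). The hepatocyte markers differed in the same contrasts: 4 of 6 were lower with KD in WT and 3 of 6 in KO, and their summed levels did not overlap between the diets. The part of this in the Stat5b and Stat5a values was not tested. Over all tested genes, KD changed 27.3% in WT after 4 h and 7.22% in KO after 4 h, and it changed 2 and 1 of the 10 genes in these contrasts.

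The longer fast lowered Stat5b on CD in both genotypes. In WT on CD the 24 h livers had 40.7, 48.0, 64.8 and 81.1 CPM, all below the 4 h livers, and the log2 change was -0.91 ± 0.17 with an adjusted p of 0.000291. In KO on CD they had 68.8, 42.5, 43.9 and 44.7 CPM, with a log2 change of -0.77 ± 0.17 and an adjusted p of 0.00255. On KD the log2 differences between 24 and 4 h were 0.18 in WT and -0.22 in KO, and neither passed. The difference between the diets in the fasting change was itself tested. In WT it was 1.08 ± 0.24 on the log2 scale (KD minus CD), with an adjusted p of 0.00282, and it passed under every alternative that was run. There 2 of the 10 genes passed against 12.9% of all genes. In KO it was 0.55 ± 0.24 with an adjusted p of 0.265, and 0 of the 10 genes passed against 1.39% of all genes. The difference between these interactions did not pass, with 0 of 10 genes called against 0.125% of all genes.

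After the long fast no difference between the diets passed in Stat5b. The means were 58.7 ± 18.1 CPM on CD and 62.6 ± 6.01 CPM on KD in WT, and 49.995 ± 12.54 and 45.1 ± 2.66 CPM in KO. In the KD contrast after 24 h, 2.78% of all genes passed in WT and 0.00693%, a single gene, in KO. Of the 10 genes, 1 (Cux2) passed in WT and 0 passed in KO. Replicate 4 of KO CD 24 h and replicate 4 of KO KD 24 h were doubted, as lying near the other diet. Without both, 52 of 14643 genes passed in KO. Averaged over diet and fasting, Stat5b was lower in KO by 0.29 ± 0.08 on the log2 scale, with an adjusted p of 0.0266. It was the only one of the 10 genes to pass there, against 9.58% of all genes. The call was lost in 6 of 32 fits that each left out 1 library. It was also lost without both doubted KO 24 h libraries (-0.27, adjusted p 0.0522). The separate KO and WT contrasts passed for 0 of the 10 genes in each case, against 1.83% of all genes on CD after 4 h, 2.07% on CD after 24 h, 2.81% on KD after 4 h and 3.95% on KD after 24 h. In Stat5b all KO CD 4 h livers were below all WT CD 4 h livers (highest KO 94.6, lowest WT 98.3 CPM). All KO KD 24 h livers were below all WT KD 24 h livers (highest KO 47.4, lowest WT 57.1 CPM). The Stat5b difference on KD after 24 h passed in some alternatives. These were limma voom weights (-0.51, adjusted p 0.0049), total counts (0.0498), a fit of only these groups (0.0466) and a fit without the muscle libraries (0.0356). On CD after 24 h and on KD after 4 h the KO and WT livers overlapped in Stat5b. How often groups are apart over all genes was not counted, so no genotype effect is read from the lack of overlap.

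Stat5a lies next to Stat5b on chromosome 11, at 100859351 to 100885169 on the plus strand in the deposited table, where Stat5b spans 100780731 to 100850724 on the minus strand. It moved in the same direction in WT after 4 h. It stood at 20.2, 23.8, 16.5 and 18.5 CPM on CD and at 13.1, 11.4, 10.2 and 15.1 CPM on KD, without overlap. The log2 change was -0.67 ± 0.19, with an adjusted p of 0.0096. Over the long fast in WT on CD it fell by 0.55 on the log2 scale, with an adjusted p of 0.0395 that was lost in 10 of 32 fits leaving out 1 library, WT CD 24 h replicate 1 among them (-0.44, adjusted p 0.178). Without that library the averaged diet change of Stat5a passed, at -0.25 with an adjusted p of 0.0403. Its averaged fasting change was then lost, at -0.21 with an adjusted p of 0.0911. Neither was particular to that library. The averaged diet change also passed with limma voom weights (adjusted p 0.00721) and without some other single libraries. The averaged fasting call was also lost without many other single libraries, with DESeq2 (adjusted p 0.0538) and with limma voom weights (adjusted p 0.0868). It is among the 7 averaged fasting calls given above. After 24 h its 4 group means were all between 13.5 and 13.6 CPM. The coding sequences of Stat5a and Stat5b are closely related, and how the counting treated reads shared between them is not given in the sources used here.

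**Figure D2:**
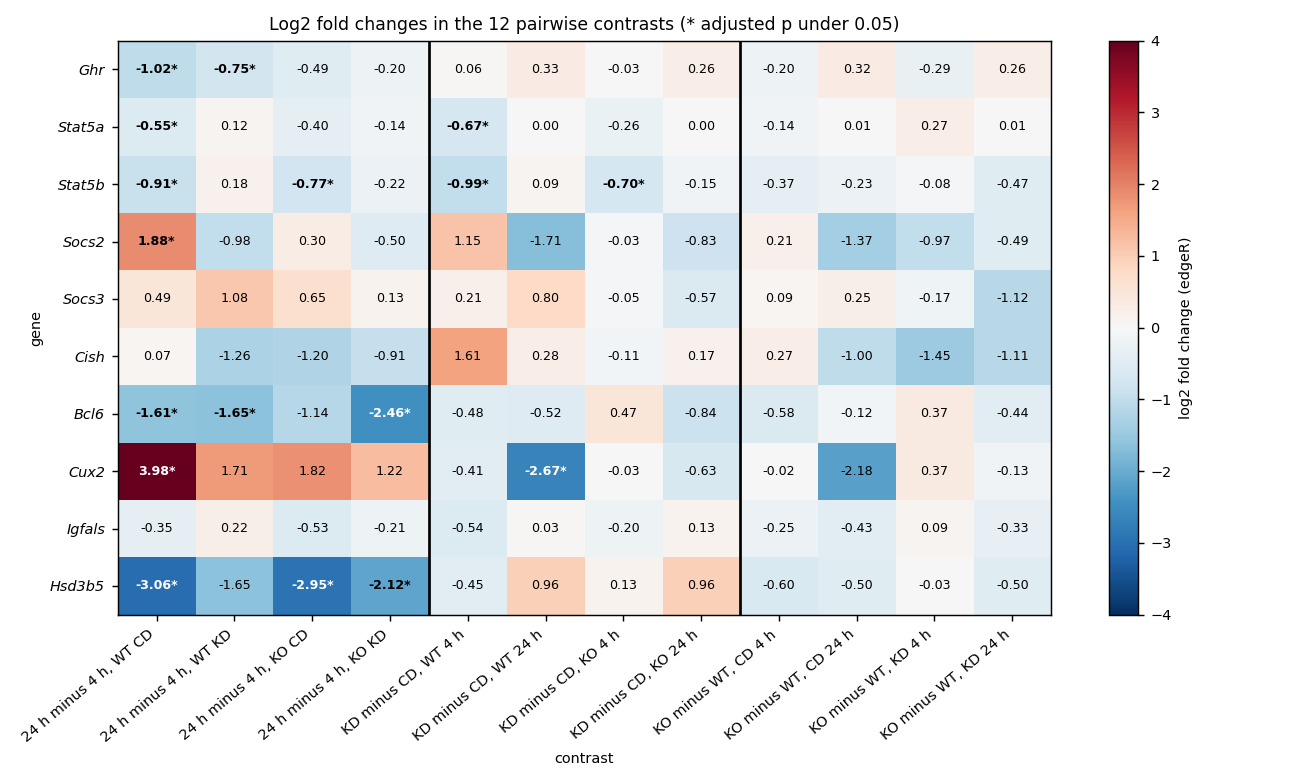
Log2 fold changes of the 10 genes in the 12 pairwise contrasts, with fasting at the left, diet in the middle and genotype at the right; red is higher in the group named before "minus", blue lower, and an asterisk marks an edgeR adjusted p under 0.05. Calls number 13 of 40 for fasting, 4 of 40 for diet and 0 of 40 for genotype, where 14.4%, 9.33% and 2.67% of these tests passed over all genes.

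Cish, Socs2 and Socs3 encode the SH2-domain proteins that STAT5 induces and that damp cytokine receptors. Cish is often read as a mark of recent STAT5 activity. With all libraries in edgeR it passed in 0 of the 22 contrasts, and after 4 h it had the widest spread of the 10 genes among animals of a group. After 4 h it stood at 4.497, 0.604, 19.1 and 0.736 CPM in WT CD. In WT KD 4 h it stood at 2.30, 36.3, 21.5 and 16.2 CPM, and 3 of 4 animals exceeded 16 CPM. In KO CD 4 h the values were 1.79, 1.10, 23.0 and 4.20 CPM, and in KO KD 4 h they were 2.80, 0.280, 2.48 and 22.6 CPM. Each of the CD groups and KO KD therefore had 1 high animal.

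The spread of Cish within groups was 2.07 log2 units (SD) after 4 h and 0.84 after 24 h. The median over all tested genes was 0.27 after 4 h. After 24 h all 16 livers lay between 1.20 and 11.4 CPM, inside the 4 h range. Group means after 24 h ran from 3.29 ± 2.11 CPM in KO CD to 8.03 ± 3.58 CPM in WT KD. The KD minus CD difference in WT after 4 h was 1.61 ± 0.95 with an adjusted p of 0.209. The outcome depended on 1 animal and on the method. Without WT CD 4 h replicate 3 the difference was 3.30, with an adjusted p of 0.0309. With limma voom weights and all libraries it was 2.78, with an adjusted p of 0.0115.

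Socs2 rose over the long fast in WT on CD and passed in no other combination. It was at 14.1, 10.3, 16.4 and 11.2 CPM after 4 h and at 47.1, 89.1, 18.8 and 36.1 CPM after 24 h. The log2 change was 1.88 ± 0.56, with an adjusted p of 0.0184. Leaving out the animal at 89.1 CPM gave 1.41 with an adjusted p of 0.0975. On KD the WT animals had 8.74, 27.4, 63.1 and 15.7 CPM after 4 h and 19.6, 10.7, 19.1 and 9.01 CPM after 24 h, a log2 difference of -0.98 that did not pass. The change with fasting differed between the diets in WT by -2.86 ± 0.79 (KD minus CD), with an adjusted p of 0.0151. Without WT KD 4 h replicate 3, the animal at 63.1 CPM, it was -2.15 with an adjusted p of 0.066. In KO livers the group means of Socs2 lay between 10.4 ± 3.72 and 18.5 ± 13.5 CPM, and no contrast within KO passed.

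Socs3, which also responds to interleukin-6 through Stat3, rose by 0.58 ± 0.21 on the log2 scale over the long fast averaged over the 4 combinations, with an adjusted p of 0.0311. That call was lost in 7 of 32 fits leaving out 1 library and with total-count scaling (0.49, adjusted p 0.0812). With all libraries no single combination passed. Without WT CD 4 h replicate 3, the animal at 20.01 CPM, the change passed in WT on CD (1.39, adjusted p 0.0139) and in WT on KD (1.08, adjusted p 0.0361). Without WT CD 24 h replicate 1 the averaged change was 0.50 with an adjusted p of 0.0639. WT on KD stood at 7.16, 13.7, 8.73 and 9.18 CPM after 4 h and 19.98, 15.1, 13.9 and 33.2 CPM after 24 h. There the log2 difference was 1.08 ± 0.42 with an adjusted p of 0.0996, although the groups did not overlap, and it was 0.0474 in a fit of only these groups. KO on KD after 24 h had 9.35, 12.7, 6.81 and 8.77 CPM, all below the 4 WT KD 24 h livers, and the log2 difference was -1.12 ± 0.42 with an adjusted p of 0.131.

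The interleukin-6 and Stat3 list had 12 genes. In WT on KD 9 were higher after 24 h and 0 lower, where 10.9% of all genes passed, with a median log2 change of 1.54 against 0.00 for all tested genes. Saa2, an acute phase protein gene, rose by 5.81 ± 0.95 log2 units, and Saa1, its close copy, rose by 4.68 ± 0.79. Lcn2, an iron-binding acute phase protein gene, rose by 3.98 ± 0.79. Reads of Saa1 and Saa2 may be shared between them. In KO against WT on KD after 24 h, 5 of the 12 genes were lower and 0 higher, where 3.95% of all genes passed. Saa2 was at 6.80 CPM in KO and 642 CPM in WT there. Markers of Kupffer cells and macrophages differed in the same comparison: 5 of 8 were lower in KO, and their summed level was 166 to 281 CPM in KO KD 24 h and 352 to 567 CPM in WT KD 24 h. Their part in the Socs3 and acute phase values was not tested.

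Bcl6 fell over the long fast. Averaged over the 4 combinations it fell by 1.72 on the log2 scale, with an SE of 0.26 and an adjusted p of 9.69e-06. In KO on KD it stood at 70.2, 91.4, 68.6 and 20.4 CPM after 4 h and at 11.6, 11.3, 11.2 and 11.5 CPM after 24 h. The 24 h livers were almost identical, and the log2 change was -2.46 ± 0.54 with an adjusted p of 0.00497. In WT on KD it went from 91.6, 31.96, 22.3 and 48.5 CPM to 14.7, 19.8, 13.1 and 14.02 CPM, again without overlap. That log2 change was -1.65 ± 0.53 with an adjusted p of 0.0397. Without WT KD 4 h replicate 1 it was -1.14 with an adjusted p of 0.209, and 5 other left-out WT KD libraries also ended the call (replicate 4 after 4 h and all 4 replicates after 24 h), at -1.58 to -1.78. With limma voom weights and all libraries it was -1.16 with an adjusted p of 0.158.

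On CD Bcl6 overlapped between times. In WT it stood at 29.5, 76.1, 42.2 and 123 CPM after 4 h and at 11.8, 12.9, 35.7 and 28.6 CPM after 24 h. The log2 change of -1.61 ± 0.52 had an adjusted p of 0.0293. It was -1.13 with an adjusted p of 0.152 without WT CD 4 h replicate 4, and it was -1.38 with an adjusted p of 0.11 without WT CD 24 h replicate 1. The call was also lost when replicate 2 after 4 h or replicate 2 after 24 h was left out. It did not hold with limma voom weights (adjusted p 0.111), in a fit of only these groups (0.0594) or without the muscle libraries (0.0907). In KO it stood at 26.0, 115, 22.0 and 18.1 CPM after 4 h and at 17.1, 24.8, 18.3 and 21.6 CPM after 24 h. Only replicate 2 was far from the rest, and the log2 difference of -1.14 ± 0.51 had an adjusted p of 0.114. After 24 h the livers on KD were lower than those on CD in KO without overlap (11.2 to 11.6 against 17.1 to 24.8 CPM), but the log2 difference of -0.84 did not pass.

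Cish and Bcl6 varied in opposite directions among animals killed after the short fast. In WT CD 4 h the animals with the lowest Cish, at 0.604 and 0.736 CPM, had the highest Bcl6, at 76.1 and 123 CPM. In WT KD 4 h the animal with the lowest Cish, at 2.30 CPM, had 91.6 CPM of Bcl6. In KO CD 4 h the lowest Cish, 1.10 CPM, went with 115 CPM of Bcl6, and in KO KD 4 h the highest Cish, 22.6 CPM, went with the lowest Bcl6, 20.4 CPM. After the group means were taken out, the correlation over the 16 livers was -0.77 (Pearson, p = 0.00347, adjusted p = 0.0781) and -0.84 (Spearman, p = 0.00102, adjusted p = 0.0399). These p-values came from 100000 permutations within groups, adjusted over 90 relations between pairs of the 10 genes at each fasting time. Without the 2 livers whose deviations of Cish from the group mean lay farthest from the median deviation, the Pearson value was -0.71. The correlation was negative within each of the 4 groups.

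Socs3 followed Cish after the short fast. The correlation of deviations was 0.78 (Pearson, permutation p = 0.00037, adjusted p = 0.0333) and 0.75 (Spearman, permutation p = 0.00133, adjusted p = 0.0399). It was 0.70 without the 2 livers whose deviations of Socs3 lay farthest from the median deviation. Without the library that held muscle transcripts it was 0.77. Of the 90 relations, that of Socs3 and Cish after 4 h was the only one to pass with both measures. Stat5b and Hsd3b5 deviated in opposite directions after 4 h, with -0.71 (Pearson, permutation p = 0.00238, adjusted p = 0.0714) and -0.76 (Spearman, permutation p = 0.00107, adjusted p = 0.0399). Of the 45 relations after 24 h, 0 passed with both measures.

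**Figure D3:**
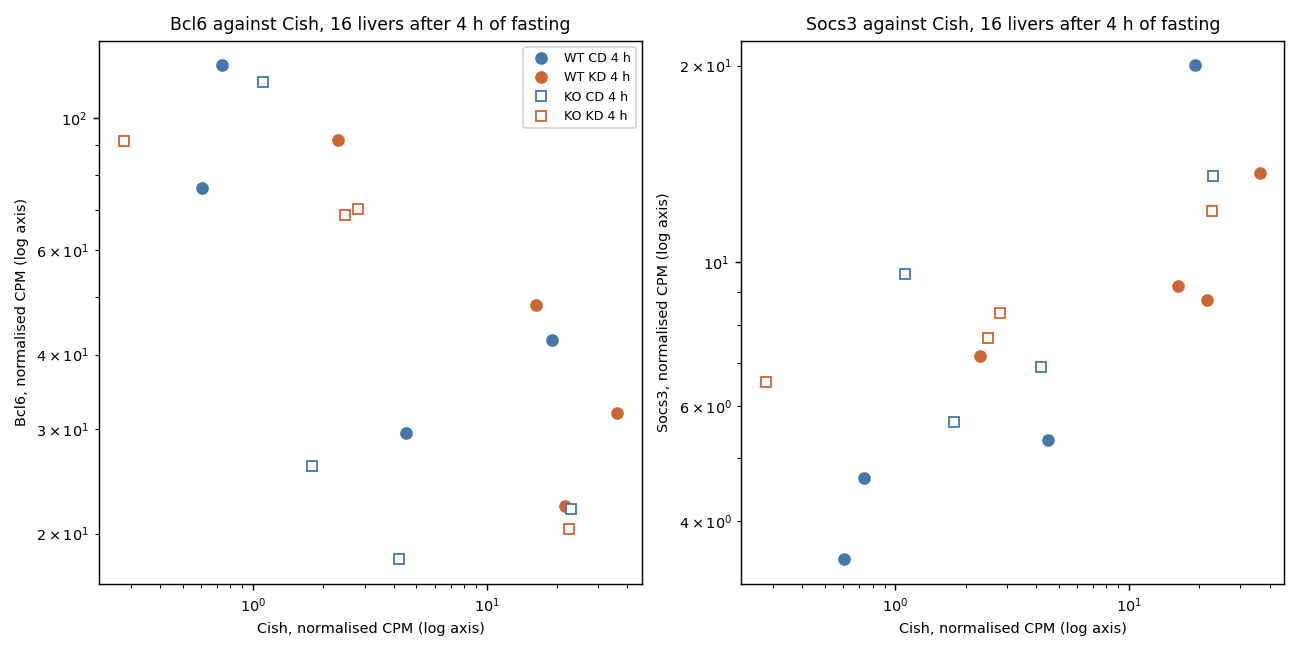
Bcl6 (left) and Socs3 (right) against Cish in the 16 livers taken after 4 h of fasting, in normalised CPM on log axes, where each point is 1 animal. Bcl6 runs from 123 CPM at low Cish to 18.1 CPM in a KO CD animal, which is not the one with the highest Cish of its group. The KO KD animal with 22.6 CPM of Cish, whose library held muscle transcripts, has 20.4 CPM of Bcl6. Socs3 is highest, at 20.01 CPM, in a WT CD animal with 19.1 CPM of Cish.

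Igfals encodes the acid-labile subunit, which holds insulin-like growth factors in their circulating complex. It passed in 0 of the 22 contrasts. Its means ran from 97.4 ± 19.5 CPM in WT CD 4 h to 56.7 ± 21.7 CPM in KO CD 24 h, with all other groups between. In WT CD 24 h it stood at 18.1, 72.7, 107 and 109 CPM, and the low value was again replicate 1. Without the 4 libraries that hold muscle transcripts, the KO minus WT log2 difference of Igfals on CD after 24 h was -1.13 with an adjusted p of 0.0355. With all libraries that difference was -0.43 with an adjusted p of 0.596.

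Other genes of the growth hormone and growth factor system were described by a list of 12. Over the long fast, averaged, 5 were higher and 2 lower, where 35.1% of all genes passed, with a median log2 change of 0.24 against -0.01 for all tested genes. Igfbp1, a binding protein that rises when insulin is low, went from 39.4 CPM after 4 h to 478 CPM after 24 h in WT on CD, a log2 change of 3.60 ± 0.74. It was at 61.2 CPM in WT on KD after 24 h, and the KD minus CD change was -2.97 ± 0.72. In KO on CD after 24 h Igfbp1 was at 73.4 CPM, lower than in WT by a log2 change of -2.70 ± 0.71. Its fasting change on CD differed between genotypes by -4.08 ± 0.98, with an edgeR adjusted p of 0.049. Igfbp2, another binding protein, went from 427 to 1170 CPM in WT on CD. Jak2, the kinase of the receptor, fell there from 22.8 to 14.8 CPM, a log2 change of -0.62 ± 0.11. Prlr, the related prolactin receptor, rose by 0.53 ± 0.16 averaged over the combinations.

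Hsd3b5 encodes a steroid enzyme that male mouse liver expresses in response to pulsed growth hormone. Its gene family has near-identical copies, and reads may be shared among them. It fell most of the 10 genes, by 2.45 on the log2 scale with an SE of 0.32 averaged over the 4 combinations, with an adjusted p of 1.15e-06. In WT on CD it stood at 344, 368, 466 and 403 CPM after 4 h and at 0.636, 20.1, 90.1 and 79.2 CPM after 24 h, a log2 change of -3.06 ± 0.66 with an adjusted p of 0.00141. Without replicate 1 after 24 h, the animal at 0.636 CPM, the change was still past the threshold, at -2.63. The call was lost in a fit of only these groups (-3.05, adjusted p 0.066). In KO on CD it went from 224, 352, 224 and 240 CPM to 23.1, 14.5, 34.7 and 62.0 CPM, with a log2 change of -2.95 ± 0.66 and an adjusted p of 0.00297.

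On KD the differences in Hsd3b5 were smaller in size, and no difference between the diets in the fasting change passed. In KO it went from 236, 280, 330 and 291 CPM to 78.7, 108, 53.7 and 20.2 CPM, with a log2 change of -2.12 ± 0.64 and an adjusted p of 0.034. That call was lost in 6 of 32 fits leaving out 1 library, and its highest adjusted p among them was 0.11. It was also lost without replicate 4 of KO CD 24 h and of KO KD 24 h, doubted as near the other diet (-1.83, adjusted p 0.101). In WT it went from 379, 271, 304 and 204 CPM to 102, 110, 102 and 54.0 CPM. The groups were clearly apart, but the log2 difference of -1.65 ± 0.63 had an adjusted p of 0.0901. Without WT CD 24 h replicate 1, a library outside that contrast, the adjusted p was 0.00746 at nearly the same difference, -1.64. The after-24 h group means were in the order KO CD, WT CD, KO KD and WT KD, from 33.6 ± 20.7 to 91.9 ± 25.6 CPM, and neighbours overlapped.

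Cux2 rose over the long fast. After 4 h all 16 livers lay between 0.192 and 0.85 CPM, from 4 to 18 reads each. In WT on CD after 24 h the animals had 23.2, 7.31, 2.52 and 0.888 CPM, all above the highest 4 h liver of that combination, at 0.697 CPM. The log2 change was 3.98 ± 0.70 with an adjusted p of 0.000153. Without replicate 1, the animal at 23.2 CPM, it was 2.72 with an adjusted p of 0.00264. The other combinations had log2 differences of 1.71 in WT on KD, 1.82 in KO on CD and 1.22 in KO on KD, and none of these passed with all libraries. In KO on CD it passed at nearly the same size (1.81 to 1.85) with DESeq2 (adjusted p 0.0343), limma voom weights (0.0449), only the groups of the contrast (0.0264), and without WT CD 24 h replicate 1 (0.0242), replicate 3 (0.0496) or replicate 4 (0.031). Averaged over all, the change was 2.18 ± 0.36 with an adjusted p of 2.45e-05.

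Diet also separated Cux2 in WT after 24 h, where KD livers had 2.38, 0.419, 1.67 and 0.930 CPM. The log2 change of -2.67 ± 0.65 had an adjusted p of 0.0204. The call was lost without WT CD 24 h replicate 1 (-1.40, adjusted p 0.213). It was also lost without WT KD 24 h replicate 2 (adjusted p 0.0821) or replicate 4 (adjusted p 0.0777). With limma voom weights the adjusted p was 0.261, and in a fit of only these groups it was 0.33. The averaged diet change was -0.93 with an adjusted p of 0.0493, which became 0.113 without WT CD 24 h replicate 1. That call was lost in 23 of 32 fits leaving out 1 library. In the averaged diet contrast 2 of the 10 genes passed, Stat5b and Cux2, against 29% of all genes. The log2 change of Stat5b there was -0.43 ± 0.08, with an adjusted p of 0.000431. For the difference between genotypes in the diet response, 0 of the 10 genes passed after 4 h and 0 after 24 h, against 0.104% and 0% of all genes.

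The sex-biased genes around Hsd3b5 and Cux2 were counted in lists of 18 each. Of the 18 female-biased genes, 7 passed the low count filter, so the counts below cover those 7 and not the list. In WT on CD, where 18.5% of all genes passed, 6 of 7 were higher after 24 h and 0 lower, with a median log2 change of 2.01 against 0.02 for all tested genes. In KO on CD 4 of 7 were higher against 18.7% of all genes, and in KO on KD 4 of 7 against 9.38%. In WT on KD 1 was higher and 1 lower, against 10.9% of all genes. Cyp17a1, a steroid hydroxylase, rose from 12.9 to 208 CPM in WT on CD, and Slco1a4, an organic anion transporter, rose from 16.4 to 151 CPM. Cyp2b9, a cytochrome P450, did not follow them: in WT on KD it fell by 4.78 on the log2 scale over the long fast, and in KO on CD after 4 h it was at 21.6 CPM against 0.500 CPM in WT.

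The sum over the female-biased list was between 40.9 and 92.7 CPM in the 16 livers after 4 h and between 89.5 and 730 CPM in the 16 livers after 24 h. A few genes made up much of these sums, so they do not describe the whole list. In WT CD 24 h the mean sum was 418 CPM, with Cyp17a1 at 208 CPM and Slco1a4 at 151 CPM. In KO KD 24 h it was 172 CPM, with Cyp2b9 at 53.0 CPM and Cyp17a1 at 51.9 CPM. In WT CD 24 h the 4 animals had sums of 730, 506, 243 and 192 CPM, in the same order as their Cux2 values. In the other 3 groups after 24 h the orders differed. WT KD 24 h had sums of 89.5, 116, 159 and 103 CPM, the lowest in the animal with the highest Cux2. Sums over the male-biased list spanned 11232 to 29200 CPM after 4 h and 9962 to 50608 CPM after 24 h, and WT CD 24 h replicate 1 was the lowest of all.

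**Figure D4:**
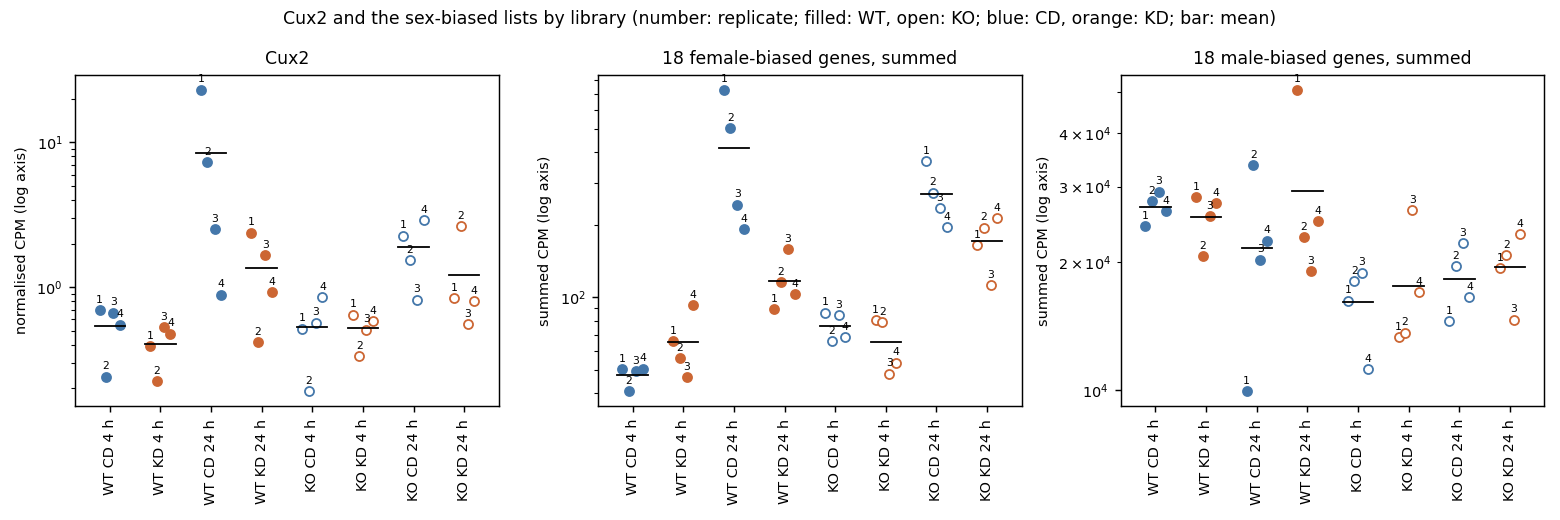
Cux2 (left), the summed female-biased list (middle) and the summed male-biased list (right) in each of 32 livers, in normalised CPM on log axes, with the replicate number above each point and the group mean as a bar. WT CD 24 h replicate 1 is highest for Cux2 (23.2 CPM) and for the female-biased sum (730 CPM) and lowest for the male-biased sum (9962 CPM). By group means, most of the female-biased sum in WT CD 24 h is Cyp17a1 and Slco1a4.

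Of the 18 male-biased genes, 5 were lower and 0 higher after 24 h in WT on CD, and 6 were lower and 0 higher in KO on CD, where 18.5% and 18.7% of all genes passed. Selenbp2, a selenium-binding protein gene, went from 553 to 69.1 CPM in WT on CD, a log2 change of -3.00 ± 0.67, and from 238 to 42.8 CPM in KO on CD. On KD in WT 2 genes were higher and 0 lower, where 10.9% of all genes passed, so that count was near the background. In KO on KD 3 were lower and 0 higher, where 9.38% of all genes passed. Elovl3, a fatty acid elongase gene, fell by 1.32 on the log2 scale in WT on CD and rose by 2.27 ± 0.49 in WT on KD. Its fasting change differed between diets in WT by 3.59 ± 0.68.

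Averaged over diet and fasting, 11 of the 18 male-biased genes were lower and 2 higher in KO, where 9.58% of all genes passed, with a median log2 change of -0.63 against -0.02 for all tested genes. Moxd1, a monooxygenase-like gene, had a log2 change of -6.26 ± 0.66, and Gna14, a G protein subunit gene, one of -1.56 ± 0.19. Cyp4a12b, a male-biased fatty acid hydroxylase gene, went the other way, with 1.22 ± 0.21. Reads of Cyp4a12a and Cyp4a12b may be shared between them. Hsd3b5 itself had log2 differences between KO and WT of -0.60 on CD and -0.03 on KD after 4 h, and of -0.50 on both diets after 24 h, none of which passed.

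The genes whose levels were most like each of the 10 were looked up by Pearson correlation of log2 CPM over all 32 livers, among 9201 genes. These values are descriptions, since the livers share the same groups and scaling. Hsd3b5 was most like Slc22a30 (0.95) and Slc22a28 (0.95), genes of the organic anion transporter family. Stat5b was most like Uggt1 (0.94), a glycoprotein folding sensor of the endoplasmic reticulum. Ghr was most like Umad1 (0.92) and Hdac11 (0.91), a histone deacetylase, and Igfals was most like Nfix (0.90), a transcription factor. Stat5a was most like Dhrs3 (0.85), a retinal reductase. Cux2 was most like Lmo4 (0.78) and Tfrc (0.78), the transferrin receptor.

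For the feedback inhibitors and Bcl6 the closest genes were less close. Cish was most like Onecut1 (0.75), a liver transcription factor induced by growth hormone in rats, Foxq1 (0.72) and Myc (0.71). Bcl6 was most like Atxn1 (0.74) and Ccdc25 (0.73). Socs3 was most like Pheta1 (0.72) and Nfkbiz (0.68), an inducible regulator of NF-kappaB, and Socs2 was most like Rasal2 (0.69). Onecut1 spanned 2.54 to 78.4 CPM over the 32 livers and Myc spanned 1.01 to 23.7 CPM.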

How the data were processed

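Poly(A) RNA of whole liver from 32 mice was sequenced from both ends with an Illumina TruSeq kit, per the labels' protocols. The deposited table gives whole-number counts per gene and FPKM. Reads were aligned with TopHat2 2.0.12 and Bowtie2 2.2.3 and counted with HTSeq 0.6.1 against GRCm38 (mm10), per the submitters' processing notes. Which strand was counted is not given in the sources used here. The deposited FPKM values equal the count divided by gene length and library total in 100% of values, within 0.1%. They were used only to compare levels between genes.

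The counts were tested with edgeR 4.0.16 (R 4.3.3; TMM scaling, filterByExpr, quasi-likelihood test, two-sided) in a single fit with a mean for each of 8 groups over 32 libraries. It had 24 residual degrees of freedom and a biological coefficient of variation of 0.235. Benjamini-Hochberg adjustment ran over 14438 genes within each of 22 contrasts: 12 pairwise, 3 averaged and 7 interactions. Genes passed at an adjusted p under 0.05. SE is the log2 change divided by the square root of F. Levels are CPM on the TMM scale, with SD over 4 animals. Log2 CPM used a prior count of 2.

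Each library is an animal, per the labels. Replicate numbers follow deposit order and pair nothing. Numbers in the sample titles fall in separate ranges by genotype and fasting time, so any batch they mark and those factors cannot be told apart. Named genes are the 10 members, Slc27a2, up to 4 genes of largest change among those that passed in a pathway list and contrast, and the 3 nearest genes by correlation. The members and lists were chosen with earlier results of these data known. Alternatives were other scalings, filters and tools (DESeq2 1.42.0, limma 3.58.1), fits of single contrasts, and fits without doubted libraries or any 1 library. The doubted libraries were those with muscle transcripts and, in a separate fit, replicate 4 of KO CD 24 h and of KO KD 24 h. The latter were set aside as lying near the other diet. The relation of members without muscle libraries was added after seeing the data. Low counts limit Cux2, and counting error is only part of the spread.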

Additional observations from a re-analysis of the deposited data

Results flagged for a closer look

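In 10 of 80 groups of 4 livers (10 genes in 8 groups), 1 liver lay far from the other 3, by Dixon's test at its 95% critical value. For independent groups of normally distributed values, chance gives this in about 1 of 20 groups. The test was run on CPM without logs and the 10 genes share the same libraries. The 10 of 80 therefore cannot be read as an excess. Of the 10, 6 were after 4 h: Socs3 in WT CD replicate 3 at 20.01 CPM, Cish in KO CD replicate 3 at 23.0 CPM, Cish in KO KD replicate 4 at 22.6 CPM, Bcl6 in KO CD replicate 2 at 115 CPM, Igfals in KO KD replicate 1 at 107 CPM and Hsd3b5 in KO CD replicate 2 at 352 CPM. All 6 were high. After 24 h, Stat5b in KO CD replicate 1 at 68.8 CPM, Socs2 in KO CD replicate 4 at 38.8 CPM and Cux2 in KO KD replicate 2 at 2.66 CPM were high, and Hsd3b5 in WT KD replicate 4 at 54.0 CPM was low. KO KD 4 h replicate 4 and KO CD 24 h replicate 1 carried skeletal muscle transcripts, whose part in these values was not tested.

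The response to the long fast differed between the diets in WT for Stat5b, by 1.08 on the log2 scale (KD minus CD), and for Socs2, by -2.86. Both were tested as interaction terms in edgeR, with adjusted p of 0.00282 and 0.0151. In Stat5b the WT means fell from 110 to 58.7 CPM on CD and stood at 55.3 and 62.6 CPM on KD. In Socs2 they rose from 12.99 to 47.8 CPM on CD and stood at 28.7 and 14.6 CPM on KD.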

How the results depend on the processing

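Without any 1 of 32 libraries, members called ranged from 3 to 6 for diet, 10 to 15 for fasting, 0 to 1 for genotype, 7 to 11 for averaged and 1 to 4 for interaction contrasts. The 0 calls for genotype in edgeR became 1 with DESeq2, 1 with total counts, 1 with only the groups of the contrast, 2 with limma voom weights and 3 without the muscle libraries. The DESeq2 call was Cux2 on CD after 24 h (adjusted p 0.0275). Each of the other settings called Stat5b on KD after 24 h. Limma voom also called Socs3 on KD after 24 h (adjusted p 0.04). The fit without the muscle libraries also called Stat5b and Igfals on CD after 24 h. With all libraries in edgeR, 5 of 40 tests had an unadjusted p under 0.05. The only reversed direction was Socs3, KD minus CD, WT 4 h: 0.21 with all libraries, not called, and -0.049 without WT CD 4 h replicate 2; without replicate 3 it was 1.11 and called. The cause was not tested. With total-count scaling the median log2 change of all genes in pairwise contrasts ran from -0.29 (24 h minus 4 h, KO KD) to 0.23 (KD minus CD, WT 4 h), and the members' changes shift with it. No paired analysis was possible because replicate numbers are only deposit order. The 5 CPM filter left out Cux2.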
